A study of Rattus norvegicus with 64 samples.

Results

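Described here are 10 genes of the late red cell lineage, found by matching the symbol before the colon of each gene name to Hba-a2, Hba2, Alas2, Fech, Slc4a1, Ahsp, Bpgm, Klf1, Gata1 and Ank1 without regard to case. They account for 11 of the 26405 gene identifiers in the count files, since Gata1 is listed under 2 identifiers, and all 11 were listed in every one of the 64 files. Each file holds the whole blood transcriptome of 1 adult male Sprague-Dawley rat, 85 to 90 days old, bled by cardiac puncture 3 h after the last of 4 injections given 2 h apart. The injections were saline in a 22.5°C environment (n = 6), saline in a cool 16°C environment (n = 5), saline in a hot 39°C environment (n = 16), amphetamine (AMPH) in the 16°C environment (n = 15) or AMPH in the 22.5°C environment (n = 22). The labels call the saline 39°C and the AMPH 22.5°C rats hyperthermic and the AMPH 16°C rats normothermic. No rat carried a transgene or deletion, and the shared condition of all groups is the depletion of alpha and beta globin mRNA from the RNA before the libraries were made, so the globin values below are what the depletion left behind. Total counts per rat ranged from 19055615 to 40530319.

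Circulating red cells have no nucleus, and the red cell mRNA of whole blood comes from reticulocytes, the youngest cells released from bone marrow. Reticulocytes still translate hemoglobin, make heme in their mitochondria and remodel their membrane while they degrade their remaining RNA. Hba-a2 and Hba2 encode alpha globin. Alas2 encodes the erythroid enzyme that starts heme synthesis and Fech encodes ferrochelatase, which inserts iron in the last step. Slc4a1 encodes band 3, the anion exchanger of the membrane, and Ank1 encodes the ankyrin that ties band 3 to the spectrin skeleton. Ahsp encodes the chaperone that binds free alpha globin, Bpgm encodes the enzyme that makes bisphosphoglycerate, which lowers the oxygen affinity of hemoglobin, and Klf1 and Gata1 encode transcription factors of the erythroid lineage. In blood, fewer reticulocytes and less of a transcript per reticulocyte cannot be told apart.

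The alpha globin genes are near-identical copies, and the division of reads between Hba-a2 (ENSRNOG00000029886) and Hba2 (ENSRNOG00000047321) is therefore uncertain. In RefSeq, Hba2 is an older name of Hba-a2, so both rows of the count files cannot be assigned to single loci here. The 250 bases before the start of both RefSeq genes, Hba-a2 and Hba-a1, are shown as a description, with the motifs TGATAA and CCNCNCCC in capitals. They are read 5′ to 3′ on the minus strand of GRCr8. These bases lie before the transcripts, so their likeness does not measure how reads divide between the rows of the count files. Those of Hba-a2 span chr10:15829139-15829388 and those of Hba-a1 span chr10:15842581-15842830.
Hba-a2: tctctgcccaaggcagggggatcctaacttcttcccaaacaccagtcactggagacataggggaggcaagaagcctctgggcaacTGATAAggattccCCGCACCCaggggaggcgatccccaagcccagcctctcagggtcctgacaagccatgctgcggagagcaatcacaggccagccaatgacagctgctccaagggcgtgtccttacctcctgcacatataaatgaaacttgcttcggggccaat
Hba-a1: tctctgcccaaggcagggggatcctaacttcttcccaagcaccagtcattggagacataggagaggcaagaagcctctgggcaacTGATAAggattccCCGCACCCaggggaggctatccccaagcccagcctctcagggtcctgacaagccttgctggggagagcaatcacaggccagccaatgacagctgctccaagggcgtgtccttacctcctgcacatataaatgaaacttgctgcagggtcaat

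Both sequences were the same at 241 of the 250 positions (96.4%). TGATAA is a form of the motif bound by GATA factors and began 165 bases before the start of both genes, and CCNCNCCC, a form of the motif bound by KLF factors, began 152 bases before it. On either strand, TGATAA was found in 7.87% of 27456 RefSeq promoters of the same length and CCNCNCCC in 43.8%. Of the other members, Fech and Klf1 had a promoter in the table that begins at the edge of the gene, and those of Alas2, Bpgm and Gata1 begin inside it and were not used. AGATAA, found in 10.05% of all promoters, occurred in that of Fech on the opposite strand, 135 bases before the start, and TGATAA occurred in that of Klf1 on the opposite strand, 26 bases before the start. CCNCNCCC occurred in the Fech promoter 76 and 62 bases before the start on the strand of the gene and was not found in that of Klf1. A match of letters is given as a description only.

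Some libraries and batches bear on the values that follow. The names of the count files carry 14 codes (file codes), whose meaning the labels do not state, and the 6 saline rats at 22.5°C share no code with the saline rats at 39°C or 16°C, so for these comparisons code and condition cannot be told apart. Myoglobin (Mb), a cardiac muscle gene, exceeded 5000 counts in 5 of the 64 rats. Those in the saline 22.5°C group (2 rats) were left out of the fits, which leaves 4 rats. Summed cardiac markers ranged from 0 to 1950 CPM (counts scaled by the total of each library) over all rats. Fits were also run without replicate 19 of saline 22.5°C and replicate 17 of AMPH 22.5°C. Ank1 and the second Gata1 identifier were lowest in the AMPH 16°C replicate 12 and the AMPH 22.5°C replicate 21, each the only library of its file code. The summed reticulocyte and erythrocyte markers (7 genes, with the members Alas2, Ahsp and Slc4a1 among them, none of them at 0 in any rat) ranged from 6164 to 25455 CPM, so all 64 libraries held red cell RNA.

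After globin depletion, the 11 identifiers together still took between 3.6% and 33.5% of the counts of a rat (median 10.2%, n = 64). Most of that was alpha globin, with Hba-a2 and Hba2 together between 2.07% and 31.9% (median 7.99%). The other 9 identifiers together took 0.766% to 3.59% of the counts (median 2.26%). Hba-a2 had the most counts of the genes listed in every file in 46 of the 64 rats, and its rank never fell below 7. Shares of counts are not corrected for gene length and so do not order the genes by abundance.

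For Hba-a2, the share of counts in the 6 saline 22.5°C rats was 3.77% at the lowest, 5.25% at the median and 7.40% at the highest. In the 5 saline 16°C rats it was 4.86%, 2.67%, 5.40%, 3.51% and 6.04%. In the 16 saline 39°C rats it was 1.66% at the lowest, 8.36% at the median and 21.7% at the highest. The saline 39°C group, with 8 file codes, had the widest range, 13.1-fold from the lowest to the highest rat. The range was 11.0-fold in AMPH 22.5°C, with 11 file codes. The saline 22.5°C rats came from 2 file codes and the saline 16°C rats from 1. The part of group size and file code in these ranges was not tested. In the 15 AMPH 16°C rats the share ran from 2.6% through a median of 6.12% to 20.3%. In the 22 AMPH 22.5°C rats it ran from 1.51% through a median of 4.54% to 16.6%. All 5 groups overlapped. A share below 2.5% occurred in 4 of the 16 saline 39°C rats and in 6 of the 22 AMPH 22.5°C rats, spread over 5 file codes. The lowest AMPH 16°C (2.6%) and saline 16°C (2.67%) rats lay just above that line. That no rat of the other 3 groups fell below it therefore depends on where the line was placed.

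Hba2 followed Hba-a2 from rat to rat (Pearson's r = 0.97 for the deviations of log2 CPM from the group means, over 64 rats), and near-identical copies can share reads. Its share of counts had a median of 1.92% in saline 22.5°C, 1.5% in saline 16°C, 3.87% in saline 39°C, 2.45% in AMPH 16°C and 1.95% in AMPH 22.5°C. The ratio of Hba2 to Hba-a2 counts within a rat had a median of 0.358 in saline 22.5°C and 0.47 in saline 39°C. The lowest ratio over all rats was 0.277 and the highest 0.647.

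Alas2 was far steadier than the globins. Its share was 1.01% at the lowest, 1.06% at the median and 1.22% at the highest in saline 22.5°C, and 0.375%, 0.806% and 1.19% in saline 39°C. In the 5 saline 16°C rats it was 1.38%, 0.982%, 1.17%, 1.29% and 1.08%. In AMPH 16°C it was 0.734% at the lowest, 1.15% at the median and 1.88% at the highest, and in AMPH 22.5°C it was 0.588%, 0.87% and 1.94%. The medians of both cool groups and of saline 22.5°C lay above 1%, and those of saline 39°C and AMPH 22.5°C lay below it, and all groups overlapped.

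The Fech share was 0.18% at the lowest, 0.193% at the median and 0.235% at the highest in the 6 saline 22.5°C rats. In the 5 saline 16°C rats it was 0.195%, 0.134%, 0.146%, 0.179% and 0.175%. In the 16 saline 39°C rats it was 0.0281%, 0.0755% and 0.176%, so that every saline 39°C rat lay below every saline 22.5°C rat. In AMPH 16°C the lowest, median and highest shares were 0.094%, 0.204% and 0.241%, and in AMPH 22.5°C they were 0.0615%, 0.101% and 0.216%. The plot of shares by rat shows these values for Fech beside 5 other members.

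**Figure D1:**
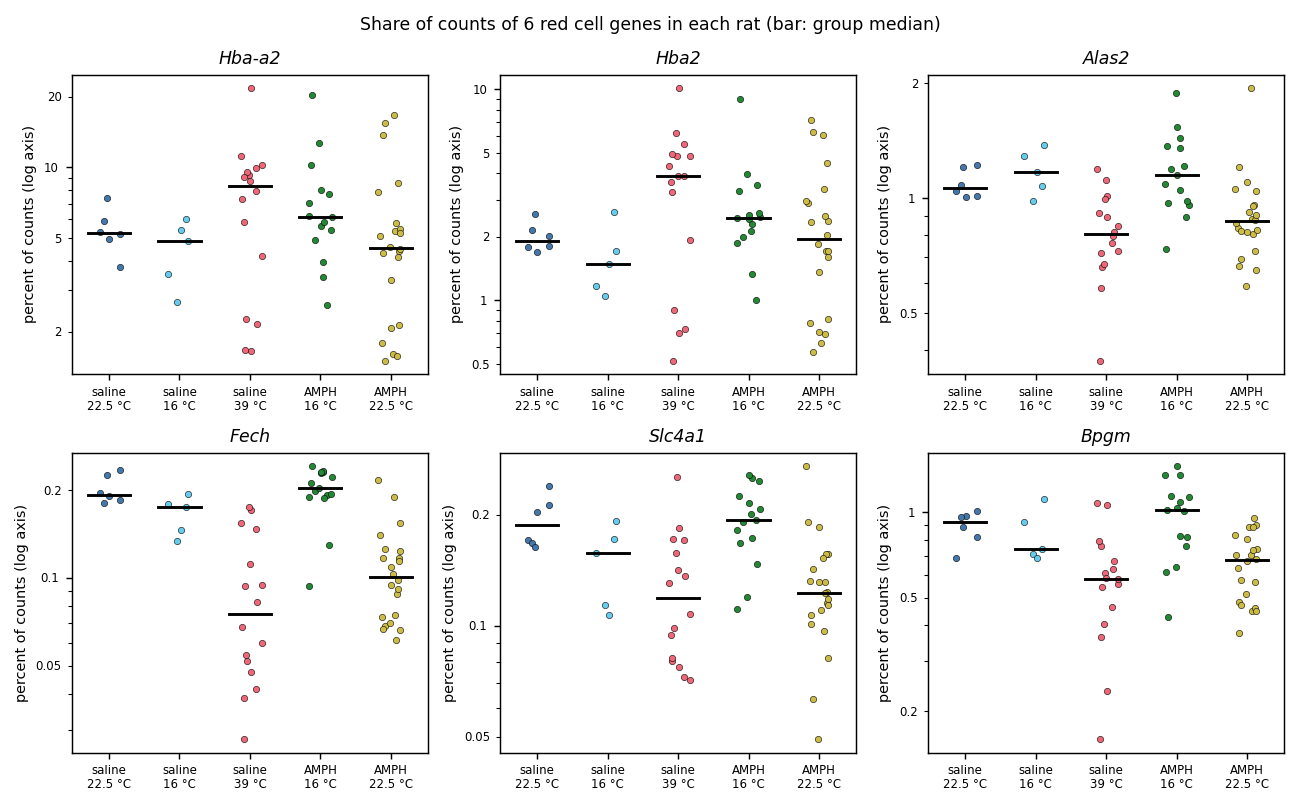
Percent of counts (log axis) of Hba-a2, Hba2, Alas2, Fech, Slc4a1 and Bpgm in each of 64 rats (points) of the 5 groups, with the group median as a bar. The Fech shares of all 16 saline 39°C rats lie below the lowest saline 22.5°C rat (0.18%), while Hba-a2 spreads from 1.66% to 21.7% in saline 39°C.

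For the membrane genes the medians were lower in saline 39°C and AMPH 22.5°C than in saline 22.5°C and AMPH 16°C. Slc4a1 took a median of 0.188% of the counts in saline 22.5°C (range 0.163% to 0.239%), 0.157% in saline 16°C (0.107% to 0.193%), 0.119% in saline 39°C (0.0715% to 0.253%), 0.193% in AMPH 16°C (0.111% to 0.256%) and 0.123% in AMPH 22.5°C (0.0494% to 0.27%). Ank1, at between 0.000814% and 0.00978% of the counts, was the member with the lowest median share, and its group medians ran from 0.00339% in saline 16°C to 0.00476% in saline 22.5°C. All of these ranges overlapped, and the Slc4a1 share of 12 of the 16 saline 39°C rats lay below that of every saline 22.5°C rat in the tests.

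Bpgm had medians of 0.926% in saline 22.5°C (range 0.69% to 1.01%), 0.743% in saline 16°C (0.692% to 1.11%), 0.584% in saline 39°C (0.16% to 1.08%), 1.02% in AMPH 16°C (0.428% to 1.45%) and 0.681% in AMPH 22.5°C (0.377% to 0.954%). Ahsp varied less between the groups, with medians between 0.184% in saline 39°C and 0.247% in AMPH 16°C and a range over all rats of 0.0686% to 0.424%. The medians of the transcription factors lay close together. Klf1 medians lay between 0.0204% and 0.0268%, those of Gata1 (ENSRNOG00000025534) between 0.0124% and 0.0133%, and those of the second Gata1 identifier (GATA1, ENSRNOG00000047663) between 0.00541% and 0.00721%.

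Whether the groups differed was tested with edgeR's quasi-likelihood test over all genes with enough counts, with Benjamini-Hochberg adjusted p-values. TMM scaling, which sets the middle of all genes to no change, was the main scale. The 100 highest genes took a median of 64.7% of the counts in saline 39°C and 54.7% in saline 22.5°C, which shifts every other share, and the same test was also run on total counts alone, which tests the share of counts described above. Where the scales give a named member opposite signs, both values are given.

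In the joint test of any difference among the 5 groups, with file code as a term, 2 of the 11 identifiers passed, Fech (adjusted p = 0.00682) and Hba-a2 (adjusted p = 0.0392), where 23.5% of the 14111 genes tested passed. The Hba-a2 call was lost with no code term (adjusted p = 0.061) and with no filter on low counts (adjusted p = 0.0552). Hba2 (adjusted p = 0.0611) and Slc4a1 (adjusted p = 0.0643) did not pass. On total counts 4 passed, Slc4a1 among them (adjusted p = 0.0289), where 1661 of all genes passed.

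The 2 AMPH groups differ in the environmental temperature and in the body temperature state that the labels give, and the comparison asks what differs between them. Over all rats of the groups, summed leukocyte markers had a median of 12809 CPM (range 5159 to 23900) in AMPH 22.5°C and 16009 CPM (10187 to 24474) in AMPH 16°C, and summed reticulocyte and erythrocyte markers 13368 CPM (7704 to 24892) and 17575 CPM (11867 to 25455). The second sum includes the members Alas2, Ahsp and Slc4a1, so it is not separate from the values tested. Alas2 alone had a median of 9652 CPM over all rats, against 14840 CPM for that sum. The part of both sums in the differences was not tested. In the 10 AMPH 22.5°C and 10 AMPH 16°C rats that share 5 file codes, the Fech share had a median of 0.0963% (range 0.0668% to 0.141%) against 0.205% (0.094% to 0.241%). No AMPH 22.5°C rat lay above the AMPH 16°C group and 4 lay below all of it, and Fech was lower in AMPH 22.5°C in 5 of 5 codes. The Fech level was 2.25-fold lower on the TMM scale (log2 fold change -1.17, SE 0.29, adjusted p = 0.013 by edgeR) and its share of counts 1.92-fold lower (log2 fold change -0.94, SE 0.17, adjusted p = 0.00148).

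Alpha globin was lower in the same rats. The Hba-a2 share had a median of 2.73% (range 1.51% to 8.58%) in AMPH 22.5°C against 6.16% (4.93% to 20.3%) in AMPH 16°C, 8 of the 10 AMPH 22.5°C rats lay below every AMPH 16°C rat, and the mean was lower in 4 of 5 codes. The exception was the code with 4 AMPH 22.5°C rats (mean 5.54%) and 2 AMPH 16°C rats (mean 5.51%). The log2 fold change of Hba-a2 on the TMM scale was -1.81 (SE 0.58, adjusted p = 0.0467 by edgeR), and that of Hba2 was -1.78 (SE 0.63, adjusted p = 0.0686). The Hba-a2 call was lost with DESeq2's Wald test (adjusted p = 0.157), with DESeq2 size factors in edgeR (adjusted p = 0.0517) and without the filter on low counts (adjusted p = 0.0555). Over all 37 rats of both groups without the code term, the Hba-a2 difference was -0.61 (adjusted p = 0.336) and that of Fech -1.11 (adjusted p = 0.000494). As a contrast of the fit over all rats with the code term, it was -1.83 (adjusted p = 0.0187) for Hba-a2 and -1.78 (adjusted p = 0.0353) for Hba2.

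Of the 11 identifiers, 2 fell on the TMM scale in this comparison and none rose, where 6.76% of 11975 genes fell and 13.8% changed in either direction. Slc4a1 had a log2 fold change of -0.81 (SE 0.27, adjusted p = 0.0542) and Alas2 of -0.54 (SE 0.24, adjusted p = 0.155). Ank1 (-0.56), Bpgm (-0.50), Ahsp (-0.39) and Klf1 (-0.29) were on the same side and both Gata1 identifiers on the other (0.13 and 0.10), none past the threshold. The median log2 fold change of the members was -0.54 against 0.00 for all genes. On total counts 4 fell, with Hba2 (adjusted p = 0.0184) and Slc4a1 (adjusted p = 0.0418) added, where 1.41% of all genes fell. Exact permutation of the group labels within file codes gave p = 0.00037 for the Fech share, p = 0.0013 for Hba-a2, p = 0.00204 for Slc4a1, p = 0.00389 for Hba2, p = 0.0172 for Alas2 and p = 0.0374 for Ank1, all lower in AMPH 22.5°C. The second Gata1 identifier was higher there (exact permutation p = 0.0328), as was Gata1 (p = 0.0506), and Ahsp, Bpgm and Klf1 had exact permutation p-values of 0.19 to 0.369. These are unadjusted over the 11 identifiers and 6 comparisons so tested.

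A ratio of 2 genes within a rat does not depend on the scale. The ratio of Fech to Alas2 counts had a median of 0.187 in saline 22.5°C (range 0.167 to 0.193) and 0.138 in saline 16°C (0.125 to 0.162). It was 0.0913 in saline 39°C (0.0532 to 0.185), 0.167 in AMPH 16°C (0.108 to 0.248) and 0.107 in AMPH 22.5°C (0.0646 to 0.205). When all genes were scaled to the Alas2 counts of each rat, Fech was lower in AMPH 22.5°C than in AMPH 16°C by a log2 fold change of -0.64 (SE 0.16, adjusted p = 0.00988), Hba-a2 by -1.30 (adjusted p = 0.0149) and Hba2 by -1.26 (adjusted p = 0.0301), while Gata1 was higher by 0.62 (adjusted p = 0.0264). Relative to Alas2, 3 members thus fell where 0.459% of genes fell, and 1 rose where 15.7% of genes rose. On this scale the median log2 fold change of all genes was 0.52, near that of Gata1, and 90.0% of genes were above 0. Ahsp, Bpgm and Ank1 had differences from Alas2 of between -0.06 and 0.04, with SEs of 0.16 to 0.21.

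**Figure D2:**
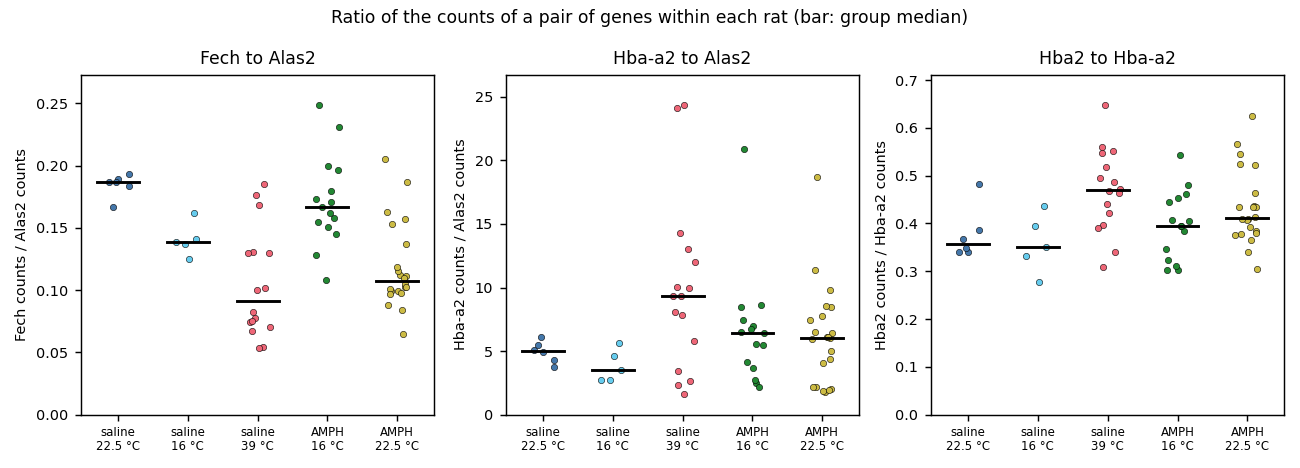
Ratio of the counts of Fech to Alas2, Hba-a2 to Alas2 and Hba2 to Hba-a2 within each of 64 rats (points), with group medians as bars. The Fech to Alas2 ratio has medians of 0.0913 in saline 39°C and 0.107 in AMPH 22.5°C, against 0.138 to 0.187 in the other 3 groups.

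In the comparison of the hot environment with saline at 22.5°C (16 against 4 rats), the direction of most members depended on the scale. On the TMM scale 10 of 11 members were higher at 39°C, with a median log2 fold change of 0.84, and 0 of 11 passed by edgeR's quasi-likelihood test, where 16.5% of 13152 genes passed. At an unadjusted p under 0.05, 4 were higher, where 4724 of the 13152 genes had such a p in either direction. DESeq2's Wald test called 4 members, namely Hba2, Hba-a2, Ahsp and Klf1, where it called 3391 of all genes. On total counts, where the median of all genes was -0.70, 4 of 11 were higher and 1 passed.

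That member was Fech, whose share of counts was lower at 39°C in 16 of 16 rats than in any of the 4 controls (log2 fold change -1.17, SE 0.36, adjusted p = 0.0252). It fell where 24.4% of all genes fell on that scale. On the TMM scale its log2 fold change was -0.26 (SE 0.48, adjusted p = 0.718), and relative to Alas2 it was -0.81 (SE 0.29, adjusted p = 0.297). Alas2 was 0.58 on the TMM scale and -0.41 on total counts, and Slc4a1 was 0.24 and -0.63. Hba2 was higher on both scales, at 2.11 (SE 0.88, adjusted p = 0.0938) and 0.97 (SE 0.56, adjusted p = 0.175), as were Hba-a2 (1.67 and 0.52), Ahsp (1.35 and 0.31) and Klf1 (1.25 and 0.23). None of these differences passed. The summed leukocyte markers had medians of 6262 CPM in saline 39°C (range 1893 to 14114) and 7285 CPM in saline 22.5°C (3855 to 21758), and the CPM of the median gene was 22.1 against 32.9. The part of these in the differences was not tested.

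**Figure D3:**
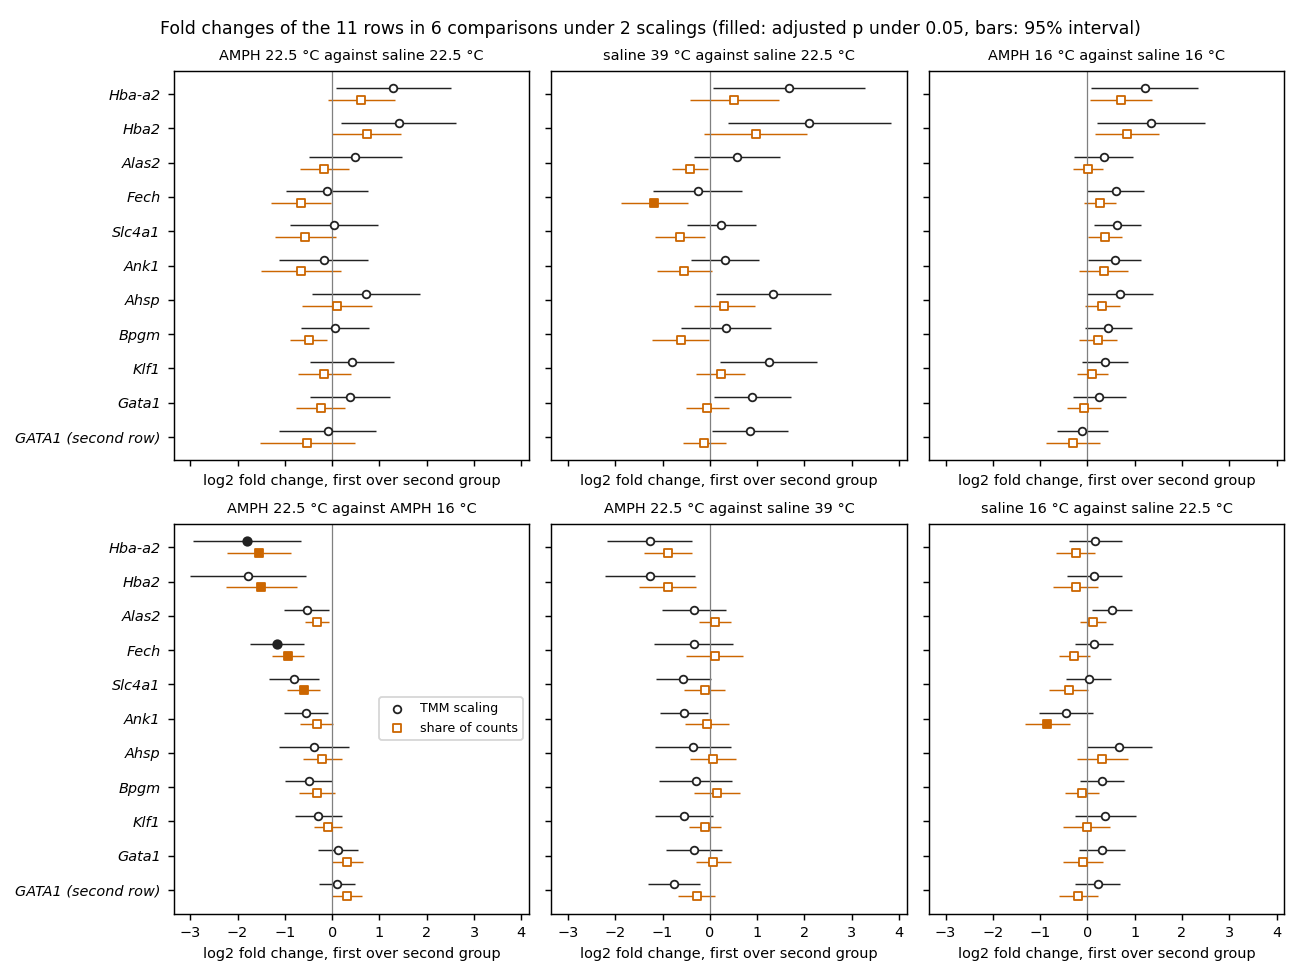
Log2 fold changes (first over second group, bars show 95% intervals) of the 11 identifiers in 6 comparisons, with TMM scaling as circles and total counts as squares, and filled symbols for an adjusted p under 0.05. In AMPH 22.5°C against AMPH 16°C the globins, Fech and Slc4a1 lie below 0 on both scales, whereas in saline 39°C against saline 22.5°C Alas2 (0.58 and -0.41) and Slc4a1 (0.24 and -0.63) change sides with the scale.

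The comparisons share the saline 22.5°C or AMPH 22.5°C rats in part, and their values are given side by side only. For the effect of AMPH at 22.5°C, the 8 AMPH rats whose label ends in W, like that of each saline 22.5°C rat, were set against the 4 saline rats. By edgeR 0 of 11 members passed, as did 0% of the 12853 genes. At an unadjusted p under 0.05 there was 1 member, Hba2, where 1337 of all genes had such a p. DESeq2 called 0 members and 202 genes. The Hba-a2 share ran from 4.52% to 16.6% (median 5.62%) after AMPH against 4.96% to 5.91% (median 5.25%), with log2 fold changes of 1.29 (SE 0.62, adjusted p = 0.486) on the TMM scale and 0.61 (SE 0.36) on total counts. Those of Hba2 were 1.41 (SE 0.62, adjusted p = 0.472) and 0.73 (SE 0.37). The Fech share ran from 0.0615% to 0.216% (median 0.125%) against 0.18% to 0.235% (median 0.193%), and 6 of the 8 AMPH rats lay below every saline rat. Its log2 fold change was -0.11 (SE 0.44) on the TMM scale and -0.67 (SE 0.32, adjusted p = 0.567) on total counts, with an exact permutation p = 0.0444 for the share. Alas2 (0.49 and -0.17) and Slc4a1 (0.03 and -0.57) changed sign between the scales. Without saline replicate 19 and AMPH replicate 17, 0 members passed as well, where 428 of all genes passed.

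For the effect of AMPH at 16°C (15 against 5 rats), 10 of 11 members were higher on the TMM scale and 9 of 11 on total counts. By edgeR 0 of 11 passed, where 0.224% of 12498 genes passed. At an unadjusted p under 0.05 there were 3 members, Hba-a2, Hba2 and Slc4a1, where 1726 of all genes had such a p. DESeq2 called 0 members and 328 genes. On the TMM scale the log2 fold change was 1.21 (SE 0.58, adjusted p = 0.357) for Hba-a2, 1.35 (SE 0.58, adjusted p = 0.309) for Hba2, 0.63 (SE 0.26, adjusted p = 0.276) for Slc4a1, 0.59 (SE 0.31, adjusted p = 0.402) for Fech and 0.34 (SE 0.32, adjusted p = 0.654) for Alas2. The Hba-a2 share of 8 of the 15 AMPH rats lay above that of every saline 16°C rat. All 5 saline rats came from 1 file code, which holds 1 of the AMPH 16°C rats.

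Whether the AMPH effect differed between 22.5°C and 16°C was tested in the fit over all rats with file code as a term. By edgeR 0 of 11 members and 0% of 14111 genes passed. No member had an unadjusted p under 0.05, where 941 genes did. The difference of the log2 effects was -0.56 (SE 0.71, adjusted p = 0.901) for Fech and 0.34 (SE 1.08, adjusted p = 0.969) for Hba-a2, and the latter was -0.47 with no code term and -0.055 on total counts.

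AMPH at 22.5°C was also set against the hot environment, in 10 and 14 rats that share 7 file codes. All 11 members were lower after AMPH on the TMM scale, and 0 passed by edgeR, where 0.0905% of 12157 genes passed. There were 3 members with an unadjusted p under 0.05, where 1419 of all genes had such a p. DESeq2 called 0 members and 279 genes. Hba-a2 had a log2 fold change of -1.27 (SE 0.46, adjusted p = 0.307) and Hba2 of -1.27 (SE 0.48, adjusted p = 0.343). On total counts the values were -0.88 (SE 0.26, adjusted p = 0.104) and -0.89 (SE 0.30, adjusted p = 0.123), with the mean share of Hba-a2 lower in 5 of 7 codes and an exact permutation p = 0.00397. Alas2 (-0.33 on the TMM scale and 0.11 on total counts) and Fech (-0.34 and 0.10) changed sign with the scale, and the 95% interval of the Fech share difference ran from -0.50 to 0.71.

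For the cool environment alone, the saline 16°C rats were set against the saline 22.5°C rats (5 against 4). By edgeR 0 of 11 passed on the TMM scale, where 0.00817% of 12238 genes passed. An unadjusted p under 0.05 was found for 1 member, Alas2, and for 3218 of all genes. DESeq2 called 0 members and 1365 genes. On total counts Ank1 was lower, with a median share of 0.00339% against 0.00514%, all 5 saline 16°C rats below all 4 others and a log2 fold change of -0.85 (SE 0.25, adjusted p = 0.0309). It fell where 24.9% of all genes fell on that scale, and on the TMM scale it was -0.45 (SE 0.29, adjusted p = 0.335). Alas2 was 0.53 (SE 0.22, adjusted p = 0.159) and Fech 0.14 (SE 0.21, adjusted p = 0.69) on the TMM scale, and Fech was -0.27 on total counts. Summed leukocyte markers ranged from 15473 to 35333 CPM in saline 16°C and from 3855 to 21758 CPM in the 6 saline 22.5°C rats, and their part in the Ank1 difference was not tested.

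Other genes of the same functions were read from lists of erythroid genes. Which blood cells the counts of each list gene came from was not tested. Of the heme and iron list 14 of 15 symbols were tested. At 39°C against saline 22.5°C all 14 were above 0 on the TMM scale (median 0.72), and 1 rose, Tfrc, the transferrin receptor (log2 fold change 2.54, SE 0.71, adjusted p = 0.0231), where 7.08% of all genes rose. On total counts 4 of the 14 were above 0, and the list median was -0.20 against -0.70 for all genes. Tfrc also rose in share of counts, where 1.25% of all genes rose, from a median of 0.00237% to 0.00497% (1.50, SE 0.54, adjusted p = 0.0442). In AMPH 22.5°C against AMPH 16°C, where Fech fell, 1 of 14 rose on the TMM scale, Cpox, the coproporphyrinogen oxidase of heme synthesis (0.53, SE 0.14, adjusted p = 0.0214), where 7.03% of all genes rose, and the list median was -0.14. On total counts, where 5.69% of all genes rose, Tfrc (1.19, SE 0.34, adjusted p = 0.034) and Cpox (0.71, SE 0.21, adjusted p = 0.0377) rose there.

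Of the membrane and skeleton list 14 of 17 symbols were tested. At 39°C 4 rose on the TMM scale and 0 fell, where 931 (7.08%) of all 13152 genes rose and 1234 fell. Among them were Ermap, an erythroid surface protein (2.16, adjusted p = 0.0209), Slc2a1, a glucose transporter (1.66, adjusted p = 0.034), and Aqp1, the water channel (1.41, adjusted p = 0.0419). Of these, only Ermap kept an adjusted p under 0.05 on total counts (1.29, adjusted p = 0.0467), where 1.25% of all genes rose. On that scale Gypc, glycophorin C, fell by 1.17 (adjusted p = 0.0194) and Cd47 fell by 0.67 (adjusted p = 0.0441), where 24.4% of all genes fell. In AMPH 22.5°C against AMPH 16°C 1 of 14 fell, Gypc, by 0.83 on the TMM scale (adjusted p = 0.0409) and by 0.61 on total counts (adjusted p = 0.0279), where 6.76% and 1.41% of all genes fell.

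All 10 erythroid transcription genes were tested. At 39°C 2 rose on the TMM scale, Tal1 (2.07, SE 0.46, adjusted p = 0.00845) and Nfe2 (1.51, SE 0.45, adjusted p = 0.0288), where 7.08% of all genes rose. Tal1 also rose on total counts (1.19, adjusted p = 0.0355), where 1.25% of all genes rose. In AMPH 22.5°C against AMPH 16°C Klf3 fell by 0.69 (SE 0.12, adjusted p = 0.00152) on the TMM scale, where 6.76% of all genes fell. Its -0.49 (SE 0.17, adjusted p = 0.0893) on total counts did not pass. Of 14 enzymes and maturation factors 13 were tested. At 39°C Epor, the erythropoietin receptor (1.52, adjusted p = 0.0182), and Blvrb (listed as BLVRB), a biliverdin reductase (1.67, adjusted p = 0.0497), rose on the TMM scale, beside 7.08% of all genes. In AMPH 22.5°C against AMPH 16°C Gpx1, glutathione peroxidase, fell by 0.93 (adjusted p = 0.028) and Ube2h, a ubiquitin conjugating enzyme of maturing red cells, fell by 0.53 (adjusted p = 0.0395) on the TMM scale. On that scale 6.76% of all genes fell, and Ube2h did not pass on total counts. In the other 4 comparisons none of these 4 lists had a gene past the threshold on the TMM scale by edgeR. On total counts Gpx1 (-0.76, adjusted p = 0.00926) fell in AMPH 22.5°C against AMPH 16°C, where 1.41% of all genes fell. Epor (0.62, adjusted p = 0.0272) rose there, where 5.69% of all genes rose. The 39°C differences of Nfe2, Slc2a1, Aqp1, Epor and Blvrb did not pass on total counts. At 39°C Cat, catalase, fell by 0.98 (adjusted p = 0.0263) and Ube2o, a ubiquitin ligase of maturing red cells, fell by 0.99 (adjusted p = 0.0279) on total counts, where 24.4% of all genes fell. In saline 16°C against saline 22.5°C, 5 list genes fell on that scale, where 24.9% of all genes fell. They were 2 of 14 heme and iron genes, Slc11a2 (-0.90, adjusted p = 0.0235) and Cpox (-0.77, adjusted p = 0.024), 1 of 14 membrane genes, Sptb, beta spectrin (-1.33, adjusted p = 0.021), 1 of 10 transcription genes, Bcl11a (-1.17, adjusted p = 0.0434), and 1 of 13 enzymes and maturation factors, Ube2o (-0.67, adjusted p = 0.0432).

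Of 16 further globin symbols 7 were listed, as 8 identifiers, and none passed in any of the 6 comparisons on the TMM scale. Beta globin took far less of the counts than alpha globin after depletion, with Hbb (ENSRNOG00000049424) at a median of 0.849% in saline 22.5°C and 0.536% in saline 39°C and HBB (ENSRNOG00000048955) at 0.617% and 0.607%. In AMPH 22.5°C against AMPH 16°C 0 of the 7 tested were above 0 on either scale, with list medians of -0.37 on the TMM scale and -0.21 on total counts.

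How the members moved together from rat to rat was described by correlating each with Alas2 over the rats of each group. For the deviations of log2(CPM + 1) from the group means over all 64 rats, with labels permuted within groups and p-values adjusted over the 5511 genes of at least 10 CPM on average, 6 of the 10 other identifiers had an adjusted p under 0.05, where 72.1% of those genes did. Gata1 (r = 0.70, Spearman's rho = 0.71), Ahsp (r = 0.69, rho = 0.67) and Fech (r = 0.67, rho = 0.56) were closest to Alas2, each with an adjusted p = 6.91e-05, from the smallest p that 100000 permutations can give. Klf1 (r = 0.47, rho = 0.54, adjusted p = 0.000478), Bpgm (r = 0.45, rho = 0.40, adjusted p = 0.0017) and Slc4a1 (r = 0.45, rho = 0.43, adjusted p = 0.00168) followed by the same permutation test. Without the 2 rats farthest from the median of Alas2, the r of these 6 lay between 0.35 and 0.72.

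For alpha globin the correlation with Alas2 did not pass on this scale. Hba-a2 had r = 0.20 (adjusted p = 0.19 by permutation) and Hba2 had r = 0.13 (adjusted p = 0.401). The globin share is part of the total that every CPM is divided by, and with the globin genes left out of that total r was 0.45 and 0.38. On DESeq2 normalized counts it was 0.70 and 0.67. Of all 5511 genes, 7.84% and 9.13% had an r as high on the first scale. With the globin genes left out these were 4.74% and 6.19%, and on DESeq2 normalized counts 11.2% and 12.5%. Among rats of the same group and file code (50 rats), r with Alas2 was 0.82 for Fech, 0.76 for Bpgm, 0.72 for Gata1, 0.69 for Ahsp and 0.57 for Slc4a1, and 0.20 and 0.06 for the globins. Within single groups, Fech had r = 0.75 (adjusted p = 0.0254) in saline 39°C and r = 0.63 (adjusted p = 0.00562) in AMPH 22.5°C by permutation over 16 and 22 rats, and Ahsp had r = 0.88 (adjusted p = 0.00459) and r = 0.69 (adjusted p = 0.00251). By the same permutation test, Gata1 passed in saline 39°C (r = 0.77, adjusted p = 0.0199) and AMPH 22.5°C (r = 0.57, adjusted p = 0.0112). In the 15 AMPH 16°C rats it was the only member to pass (r = 0.87, adjusted p = 0.0449). Bpgm (r = 0.72) and the second Gata1 identifier (r = 0.77) also passed in saline 39°C, and Slc4a1 (r = 0.58) and Klf1 (r = 0.52) in AMPH 22.5°C. The globins and Ank1 passed in none of these groups. Of all genes compared, 4.68% passed in saline 39°C, 47.9% in AMPH 22.5°C and 3.97% in AMPH 16°C, and in the 6 saline 22.5°C rats no gene did by exact permutation. The 5 saline 16°C rats were too few.

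**Figure D4:**
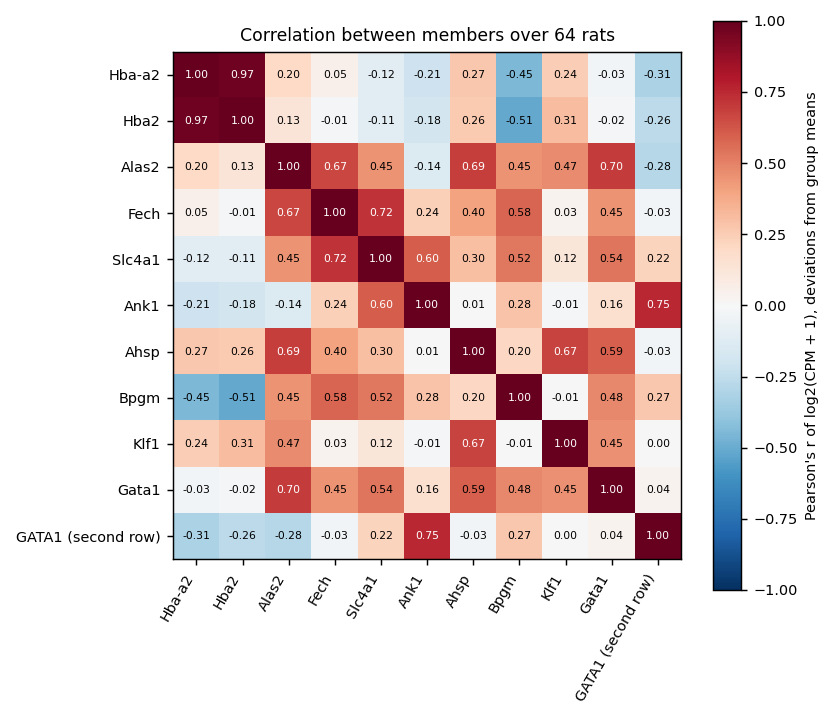
Pearson's r between the members over 64 rats, for deviations of log2(CPM + 1) from group means. Hba-a2 and Hba2 form one pair (0.97), and the globins have negative values with Bpgm (-0.45 and -0.51). Alas2 has 0.67 to 0.70 with Fech, Ahsp and Gata1, which have 0.40 to 0.59 with each other.

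Between all 55 pairs of members, r ran from -0.51 to 0.97 with a median of 0.22, and 12 pairs reached 0.5. Fech and Slc4a1, the heme and the band 3 gene, had r = 0.72, Ahsp and Klf1 r = 0.67, and Slc4a1 and Ank1 r = 0.60. Bpgm had r = -0.45 with Hba-a2 and r = -0.51 with Hba2. Ank1 and the second Gata1 identifier had r = 0.75, which includes the AMPH 16°C replicate 12 and the AMPH 22.5°C replicate 21, where both were lowest.

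By Spearman's rho of log2(CPM + 1) with Alas2 over all 64 rats, Fech ranked 2 of 5511 genes (rho = 0.79), Bpgm 55, Ahsp 66, Slc4a1 69, Gata1 178, Klf1 385, Ank1 638, Hba-a2 819, the second Gata1 identifier 1312 and Hba2 1337. These ranks include differences between the groups. By r of the deviations from group means, Gata1 ranked 10, Ahsp 12, Fech 17, Klf1 142, Bpgm 160, Slc4a1 167, Hba-a2 432, Hba2 503, Ank1 1081 and the second Gata1 identifier 1851. The 10 genes outside the members with the highest rho were GABARAPL2 (0.80), Gpx1 (0.78), Ubac1 (0.77), Ncoa4 (0.77), Bcas2 (0.76), Mff (0.74), Fam210b (0.74), Bnip3l (0.73), Bola3 (0.72) and Snx3 (0.72). All points share the total count of their library, and these values are a description.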

How the data were processed

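The authors depleted globin mRNA, made stranded mRNA libraries from the blood of each rat, aligned the reads to the rat transcriptome (rn5) with bowtie 0.12.9 and estimated gene counts with RSEM 1.2.0. They deposited expected counts per gene, not normalized, which were rounded here. Shares are percentages of all counts of a file. Fits used edgeR 4.0.16 (TMM, quasi-likelihood test) under R 4.3.3, over genes that all files of a fit list, where the number of rats reaching 10 counts was no less than the size of the smaller group. Comparisons of AMPH 22.5°C with AMPH 16°C and saline 39°C used rats of shared file codes with the code as a term. DESeq2 1.42.0, other scalings and left-out rats were alternatives. In simulated data for AMPH against saline at 22.5°C (12619 genes), 66.3% of log2 changes of 2 and 7.07% of changes of 1 were recovered. Members and lists were chosen with earlier results of these data known. Members are named in every group, and at most 4 genes of each list per comparison, by lowest p, with the 10 genes closest to Alas2. The values of 1 list gene are not reported here. The labels number the rats and do not say that a shared number pairs them. In AMPH against saline at 22.5°C, rats of the same number had a mean r of deviations of 0.233, against -0.078 for other pairs of rats, with 3 of 4 pairs above 0.1. In the other comparisons with shared numbers the mean r of the same number was -0.062 to 4.2e-05. Each rat is 1 library of a separate animal. The authors ran RSEM without special settings.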

Additional observations from a re-analysis of the deposited data

Results flagged for a closer look

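In 3 of 22 sets of 5 or 6 rats examined, 1 rat lay far from the others relative to the range of its group. Chance marks about 1 in 20 such groups. The Ank1 share of the saline 22.5°C replicate 18 was 0.00978% against 0.00524% in the next rat, a gap of 0.787 of the range of the group. The Gata1 share of the same replicate 18 was 0.0201% against 0.0131% in the next rat, a gap of 0.726 of the range. The Klf1 share of the saline 16°C replicate 1 was 0.0325% against 0.0215% in the next rat, a gap of 0.814 of the range.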

How the results depend on the processing

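Of 507 recomputed fold changes of single members, 442 kept their direction and side of the threshold, 34 changed sign, 27 came past the threshold and 4 no longer passed; the causes were not tested. The number of members past the threshold changed as follows. In AMPH 22.5°C against AMPH 16°C (2 members) it was 1 with DESeq2 size factors, 1 without a filter on low counts, and 4 on total counts, scaled to Alas2, without rats above 5000 Mb counts, without AMPH 16°C replicate 2 (the only such rat there) and as a contrast over all rats. Of all genes, 1651 passed there in the main fit, 850 on total counts and 1939 scaled to Alas2. In saline 39°C against saline 22.5°C (0) it was 4 by DESeq2, 4 with all 6 saline rats and 1 on total counts. Of all genes, 3391, 4352 and 3373 passed in these settings, and 2165 in the main fit. It was 1 in AMPH 22.5°C against saline 39°C over all rats with no code term (590 of all genes). It was 1 in saline 16°C against saline 22.5°C on total counts (3155 genes) and scaled to Alas2 (2308 genes), and 0 in both comparisons otherwise. In the test of any difference (2) it was 6 with no code term, 1 without a filter, 4 with all 6 saline rats and 4 on total counts. Of all genes, 3314 passed that test in the main fit, 6259 with no code term and 1661 on total counts. For settings named here without a count of all genes, only the range over all settings is given, in the last paragraph. The member counts of those settings are therefore a description and were not compared with a share of all genes. With DESeq2's Wald test the Hba-a2 difference between the AMPH groups had an adjusted p = 0.157. In the test of any difference Hba-a2 no longer passed with no code term (adjusted p = 0.061) or without a filter (0.0552).

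Rats of the compared groups share numbers, which the labels do not give as pairs. With the number as a replicate block, 3 members passed between the AMPH groups (Fech -1.62, Hba-a2 -1.94, Bpgm -0.97), against 6 in the same rats without it, and 0 members in the other 3 comparisons with shared numbers. In the rats that share numbers, the genes called without and with the block were 542 and 163 in AMPH 16°C against saline 16°C, 1618 and 961 in AMPH 22.5°C against AMPH 16°C and 1 and 3 against saline 39°C.

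Signs changed in AMPH against saline at 22.5°C for Alas2 on total counts (-0.17), for Fech without saline replicate 18 (0.00078) and for Slc4a1 with the block (-0.49), in the same rats without it (-0.18), with all 22 AMPH rats (-0.086), with a code term (-0.12), on total counts (-0.57), scaled to Alas2 (-0.36), as a contrast over all rats (-0.14), while without single rats Slc4a1 lay between -0.13 and 0.17. At 39°C they changed for Alas2 (-0.41) and Slc4a1 (-0.63) on total counts and for Slc4a1 scaled to Alas2 (-0.17). In AMPH against saline at 16°C Alas2 was -0.18 as a contrast over all rats. Between the AMPH groups, scaled to Alas2, Ahsp was 0.038 and Klf1 0.21; with the block, without it, over all rats and as a contrast, Gata1 was -0.32, -0.31, -0.13 and -0.054 and the second Gata1 identifier -0.046, -0.065, -0.022 and -0.11. Against 39°C, Alas2 (0.11) and Fech (0.10) changed sign on total counts and Fech (0.029) scaled to Alas2. For saline 16°C, Ank1 was 0.12 as a contrast over all rats, and Fech -0.27 on total counts and -0.39 scaled to Alas2. The difference of AMPH effects for Hba-a2 was -0.47 with no code term and -0.055 on total counts.

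The correlation with Alas2 was 0.45 for Hba-a2 and 0.38 for Hba2 with globins out of the CPM. On DESeq2 normalized counts it was 0.70 and 0.67, where 11.2% and 12.5% of genes had an r as high. On those counts, Ank1 was 0.41 and the second Gata1 identifier 0.21, and within codes they were 0.33 and 0.45, against -0.14 and -0.28. With globins out of the total, the median shares were 1.17% for Alas2 in saline 22.5°C, 0.245% for Fech in AMPH 16°C and 0.231% for Ahsp in saline 16°C.

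Counts of all genes past the threshold depended on the setting: 0 to 803 in AMPH against saline at 22.5°C (202 by DESeq2), 19 to 4352 at 39°C (256, 398 and 845 without saline 22.5°C replicates 17, 18 and 21), 0 to 542 in AMPH against saline at 16°C, 850 to 2353 between the AMPH groups, 0 to 590 against 39°C, 0 to 3155 in saline 16°C against 22.5°C (2095 without saline 22.5°C replicate 19), 0 to 49 for the difference of AMPH effects and 1661 to 6259 for any difference. With 4 controls, small changes could be missed.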
